A study of Rattus norvegicus with 14 samples.

Results

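Receptors that couple to inhibitory Gi/o proteins were described in dorsal root ganglia, the clusters of sensory neuron bodies beside the spinal cord. The set held 10 of the 30562 genes in the deposited tables and was found by gene symbol: the opioid receptor genes Oprm1, Oprd1, Oprk1 and Oprl1, the cannabinoid receptor gene Cnr1, the adrenergic receptor genes Adra2a and Adra2c, the somatostatin receptor gene Sstr2, the muscarinic receptor gene Chrm2 and the serotonin receptor gene Htr1d. Each matched 1 row. RNA came from lumbar ganglia L2 to L5 of 7 wild-type male rats. In each rat the extensor digitorum longus, a leg muscle, had been grafted onto the saphenous nerve, a sensory nerve, in 1 hindlimb, and the opposite limb was not operated on. The groups were 3 control and 3 surgical libraries at 6 weeks (rats A, B and E) and 4 of each at 8 weeks (rats D, C, G and H). The control ganglia came from the operated animals themselves, and no ganglia of animals without surgery were analysed here. The labels gave neither strain nor age, and the saphenous nerve supplies only part of the neurons in these ganglia.

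Gi/o-coupled receptors quiet a neuron: the activated G protein lowers cyclic AMP through adenylyl cyclase, opens inward-rectifier potassium channels and holds back presynaptic calcium channels. In sensory neurons they reduce transmitter release at the first synapse of the pain pathway, and several are targets of drugs, among them morphine (the mu receptor, Oprm1), clonidine (alpha-2 receptors) and triptans (the serotonin 1D receptor, Htr1d). Opioid receptors of sensory neurons are known to be regulated after nerve injury, which makes their level in ganglia upstream of a grafted nerve a matter of interest.

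The deposited estimated counts summed to between 18489100 and 28237600 per library (6 significant digits). The libraries differed in tissue content. The mean log2 CPM (the count relative to the library's total, scaled by TMM) of 16 sensory neuron markers ran from 5.87 in the surgical library of rat A to 9.11 in the control library of rat G, and all 16 were counted in every library. It was 6.59 in the control library of rat B and at least 7.66 in each of the other 12. The 16 were Tubb3, Uchl1, Rbfox3, Snap25, Syt1, Prph, Elavl3, Elavl4, Stmn2, Scn9a, Map2, Isl1, Avil, Syn1, Nefl and Nefm. Many of them mark neurons in general, so spinal cord neurons in a library would count towards this level too. What such neurons added to it was not tested. The surgical ganglia of rat B stood out for spinal cord markers (8 genes, mean log2 CPM 6.39, against 1.28 or less elsewhere), and skeletal muscle markers (6 genes) came to 12.4 in rat C (surgical), 9.41 in rat H (control) and 7.44 in rat E (surgical). In whole ganglia fewer cells of a type and less RNA per cell cannot be told apart.

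Adra2c, which encodes the alpha-2C adrenergic receptor, had the highest level per transcript length, with a mean of 14.5 TPM (a level relative to transcript length and library total; SD 7.54, n = 7 control ganglia). Htr1d followed at 9.62 TPM (SD 5.97) and Oprl1, the nociceptin receptor gene, at 8.97 TPM (SD 5.21). Cnr1 (4.13 TPM, SD 2.15) and Chrm2, the muscarinic M2 receptor gene (3.29 TPM, SD 1.77), were intermediate. The classical opioid receptor genes were low, with Oprk1 (kappa) at 2.01 TPM (SD 1.38), Oprm1 (mu) at 1.83 (SD 1.46) and Oprd1 (delta) at 1.35 (SD 0.993), close to Adra2a at 1.99 (SD 0.528). Sstr2 was lowest at 0.713 TPM (SD 0.449). None of the 9 pairs of neighbours in this order passed in control ganglia after adjustment. The smallest adjusted p was 0.0703 (two-sided exact sign-flip test on log2(TPM + 0.1) over 7 rats, where the smallest p possible is 0.0156). A single pair could not pass however steady, since the adjustment over 9 pairs needs several small p values at once. The order itself came from these same control means. Adra2c exceeded Htr1d in 7 of 7 rats (mean log2 difference 0.75, SD 0.38), and Chrm2 exceeded Oprk1 in 7 of 7 (0.73, SD 0.45). Htr1d and Oprl1 stood closest, at 0.06 (SD 0.22), with Htr1d higher in 4 of 7. In the surgical ganglia, taken in the same order, 3 pairs passed (Adra2c over Htr1d, Chrm2 over Oprk1 and Oprd1 over Sstr2, each adjusted p = 0.0469 by the exact sign-flip test and higher in 7 of 7 rats). Adra2c over Htr1d and Chrm2 over Oprk1 also held in 7 of 7 control ganglia without passing, so the counts of passing pairs do not compare the sides.

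**Figure D1:**
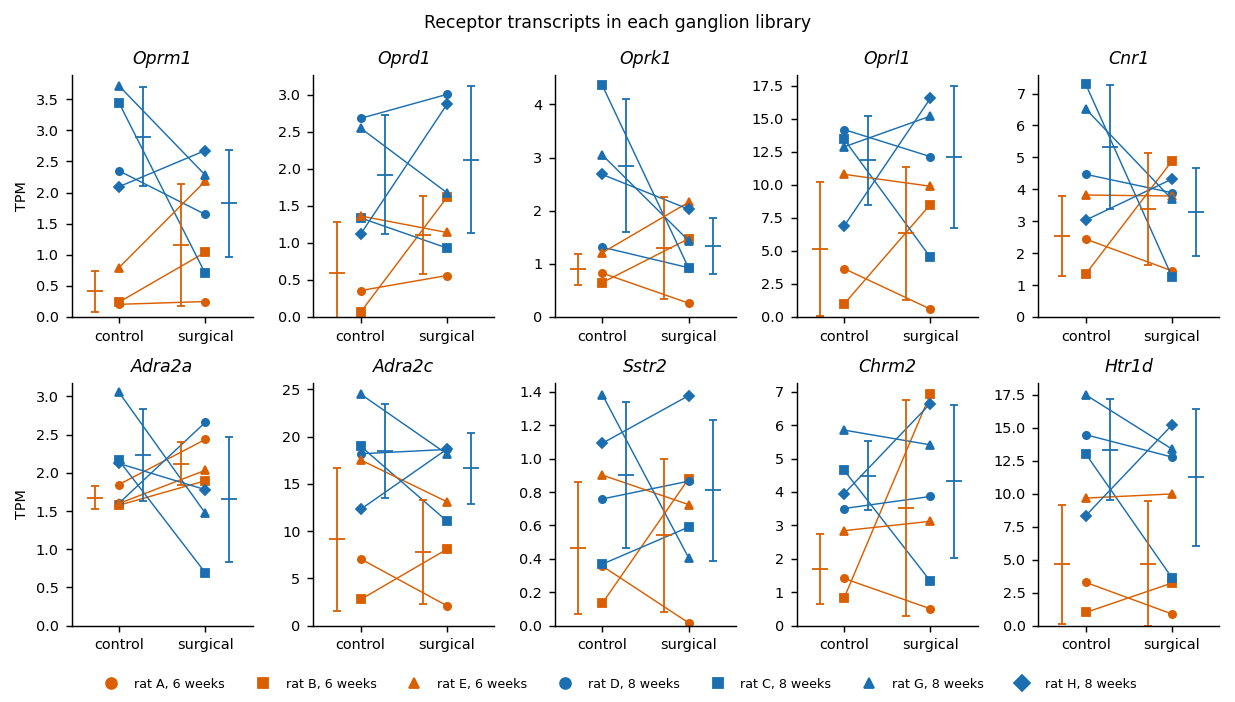
TPM of each receptor gene in every library, with lines joining the control and surgical ganglia of a rat, and bars giving the group mean and SD (n = 3 at 6 weeks, orange; n = 4 at 8 weeks, blue), with axes that start at 0 and hide any bar below it. Lines run both up and down in every panel, and the 6-week controls of Oprm1 (at most 0.792 TPM) lie below all 8-week controls (at least 2.09 TPM).

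Oprm1, the receptor through which morphine acts, stood higher on the surgical side at 6 weeks and mostly lower there at 8 weeks, with neither difference past the test. At 6 weeks the control ganglia of rats A, B and E held 0.202, 0.237 and 0.792 TPM of Oprm1, and their surgical ganglia 0.247, 1.04 and 2.18 TPM. At 8 weeks the control ganglia of rats D, C, G and H held 2.35, 3.44, 3.72 and 2.09 TPM, and their surgical ganglia 1.65, 0.699, 2.28 and 2.68 TPM. The surgical side was thus higher in 3 of 3 rats at 6 weeks and lower in 3 of 4 at 8 weeks by TPM, with overlapping groups at both times. On the TMM-scaled log2 CPM scale it was lower in 4 of 4 rats at 8 weeks, although rat H stood almost at 0 there. At 6 weeks rat A stood near 0 on that scale as well (0.07), so the higher surgical level rested on rats B and E. The log2 difference was 1.15 (SE 0.54) at 6 weeks and -0.73 (SE 0.44) at 8 weeks, and 0.01 over both (SE 0.44, higher in 3 of 7 rats). Without rat B, whose surgical library stood out for spinal cord markers, the 6-week difference was 0.81 (SE 0.66). Without rat C, whose surgical library held the most muscle transcripts, the 8-week difference was -0.27 (SE 0.34). What the spinal cord or muscle RNA contributed was not tested. The change of the side effect from 6 to 8 weeks was -1.88 (SE 0.70, unadjusted p = 0.0301), and it did not pass (adjusted p = 1, edgeR quasi-likelihood with Benjamini-Hochberg adjustment over 17035 genes). An unadjusted p under 0.05 in this comparison was found for 1 of the 10 receptor genes and 1.48% of all genes tested. With the sensory neuron level as a covariate the change was -1.81 (SE 0.46, adjusted p = 0.643, edgeR), and without each rat in turn it ran from -2.32 to -1.43. On the log2(TPM + 1) scale, which compresses low levels, limma gave -1.03 for the change and 0.53 for the 6-week difference. Counts were low at 6 weeks, with 12, 10 and 41 in the 3 control and 13, 44 and 96 in the 3 surgical libraries. The 10 counts in the control library of rat B allow 4.80 to 18.4 (95% exact Poisson interval, counting error only).

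Oprk1, the receptor for dynorphin, was lower on the surgical side in every 8-week rat. The 8-week control ganglia of rats D, C, G and H held 1.31, 4.36, 3.05 and 2.68 TPM of Oprk1, and their surgical ganglia 0.926, 0.922, 1.44 and 2.03 TPM. The 2 sides overlapped as groups, since the control of rat D was below the surgical ganglia of rats G and H. The log2 difference at 8 weeks was -0.92 (SE 0.42, unadjusted p = 0.0605), which did not pass (adjusted p = 1, edgeR). At 6 weeks Oprk1 stood at 0.825, 0.647 and 1.21 TPM in the control ganglia of rats A, B and E and at 0.26, 1.47 and 2.16 TPM in the surgical ones, so that only rat A had less on the surgical side. The log2 difference there was -0.04 (SE 0.50), and 0.65 without rat A. Relative to the sensory neuron level the 8-week difference kept its sign in all 4 rats, from -0.34 in rat D to -1.23 in rat H, and the covariate left it at -0.83 (SE 0.26, adjusted p = 0.97, edgeR). The change of the side effect between the times was not past the test for Oprk1 (-0.89, SE 0.65, adjusted p = 1, edgeR).

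Oprl1, the nociceptin receptor gene, had the widest spread of side differences among the 10 genes (SD 1.59 over 7 rats, log2 CPM). Its 6-week TPM was 3.66, 0.97 and 10.8 in the control and 0.594, 8.51 and 9.9 in the surgical ganglia of rats A, B and E. Its 8-week TPM was 14.2, 13.5, 12.9 and 6.86 in the control and 12.1, 4.52, 15.2 and 16.5 in the surgical ganglia of rats D, C, G and H. Rats A and B thus differed in opposite directions, by -2.53 and 2.48 on the log2 CPM scale, and the sensory neuron level of the same rats differed by -1.79 and 1.52. For both times together it stood at 0.01 (SE 0.54; surgical side above control in 3 of 7 rats, adjusted p = 1, edgeR). With the neuronal covariate it was 0.16 (SE 0.13). The surgical library of rat B was also the one that stood out for spinal cord markers. Without rat B the value over both times was -0.36, and without rat A it was 0.38. At 6 weeks Oprl1 stood at -1.33 without rat B and at 1.11 without rat A. The part of the spinal cord RNA in this was not tested.

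Oprd1, the enkephalin receptor gene, had the largest positive difference of the set over both times, 0.55 (SE 0.46; higher in 4 of 7 rats, adjusted p = 1, edgeR). Its counts were few, from 2 in the control library of rat B to 73 in that of rat D, and 2 counts allow 0.242 to 7.22 (95% exact Poisson interval). Rat B alone gave a log2 difference of 3.22, from 0.0652 to 1.61 TPM, and its surgical library was the one with spinal cord transcripts. Without rat B the difference over both times was 0.20, and at 6 weeks it went from 1.11 (SE 0.78) to 0.13. What the spinal cord RNA contributed was not tested.

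As shares of the summed opioid receptor TPM, Oprl1 made up 62.8% (SD 9.83, n = 7) of control and 63.2% (SD 12.5, n = 7) of surgical ganglia. Oprk1 made up 17.0% (SD 9.09) of the control and 10.7% (SD 3.89) of the surgical sum, and was lower on the surgical side in 6 of 7 rats (difference -6.29 percentage points, SD 8.99, two-sided exact sign-flip p = 0.0781, 4 shares compared). In rat B alone the difference was -22.1 points. Without rat B the mean difference was -3.67 points (SD 6.25, exact sign-flip p = 0.156, n = 6), while without rat E it was -8.26 (exact sign-flip p = 0.0312, n = 6, not adjusted). Oprd1 made up 8.48% (SD 3.32) and 14.9% (SD 8.90), a difference of 6.39 points (SD 10.04, exact sign-flip p = 0.109). In rat A alone it was 26.6 points, and without rat A the mean was 3.01 (SD 5.04, exact sign-flip p = 0.219, n = 6). Oprm1 made up 11.7% (SD 5.12) and 11.2% (SD 2.48; p = 0.859, exact sign-flip test). The shares of a library add to a fixed total and so are not independent. The surgical library of rat A stood apart, with 33.7% Oprd1 and 35.8% Oprl1 at a low summed level, and it was also the library with the lowest neuronal level.

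**Figure D2:**
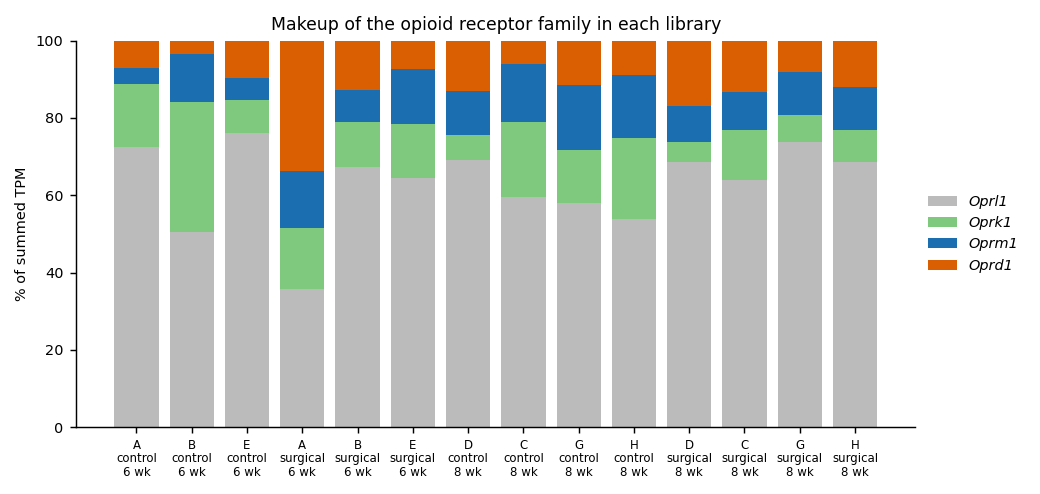
Share of each opioid receptor gene in the summed TPM of the 4 genes, 1 bar per library (percent), ordered by time and side. Oprl1 is the largest share in every library, from 35.8% in the surgical ganglia of rat A to 76.2% in the control ganglia of rat E.

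Cnr1, the gene of the CB1 cannabinoid receptor, stood at -0.29 (SE 0.34; higher in 2 of 7 rats) over both times and at -0.60 (SE 0.44) at 8 weeks, and neither passed (adjusted p = 1, edgeR). Its control TPM at 8 weeks was 4.47, 7.29, 6.52 and 3.03 in rats D, C, G and H, and its surgical TPM 3.89, 1.26, 3.69 and 4.32. The lowest surgical value was in rat C, whose surgical library held the most muscle transcripts. Without that rat the 8-week difference was -0.14 and that over both times -0.01. The part of the muscle RNA in this was not tested.

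Adra2a, the alpha-2A adrenergic receptor gene, was the only one of the 10 with no overlap between the sides in either time. At 6 weeks its TPM was 1.85, 1.58 and 1.6 in the control and 2.44, 1.9 and 2.03 in the surgical ganglia of rats A, B and E. Of all genes tested, 4.72% were higher in all surgical than in all control libraries at 6 weeks by TPM, so 1 of 10 is near that share, and 1.25% were lower in that way, with 0 of the 10. At 8 weeks 0 of the 10 and 0.211% of all genes were higher, and 0 of the 10 and 1.61% lower, without overlap. On the TMM-scaled counts the surgical side was higher in only 2 of the 3 rats, since rat B turned to -0.36, and the log2 difference was 0.12 (SE 0.39, adjusted p = 0.999, edgeR). At 8 weeks Adra2a was 1.6, 2.16, 3.05 and 2.12 TPM in the control and 2.66, 0.694, 1.47 and 1.78 in the surgical ganglia of rats D, C, G and H, with a log2 difference of -0.43 (SE 0.35, adjusted p = 1, edgeR).

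The 3 receptor genes of amine and acetylcholine signalling that were more abundant, Adra2c, Chrm2 and Htr1d, had estimates near 0 with wide errors. Adra2c was 18.2, 19, 24.5 and 12.3 TPM in the 8-week control and 18.7, 11.1, 18.2 and 18.7 TPM in the 8-week surgical ganglia of rats D, C, G and H. Its log2 difference over both times was -0.18 (SE 0.28), that of Chrm2 0.02 (SE 0.41) and that of Htr1d -0.24 (SE 0.35), each with adjusted p = 1 (edgeR). A band of 2 SE around these values runs from -0.73 to 0.37 for Adra2c, from -0.81 to 0.85 for Chrm2 and from -0.94 to 0.45 for Htr1d. Chrm2 in rat B was 0.823 TPM on the control and 6.92 TPM on the surgical side, the widest gap of that gene. That surgical library was the one with spinal cord transcripts, whose part in the gap was not tested. Without rat B the value of Chrm2 over both times was -0.31. Sstr2, the receptor on which octreotide acts, stood at -0.04 (SE 0.44), with 2 to 57 counts per library. Its TPM is less certain than its counts, because its ratio of count to TPM, a measure of the transcript length assigned to it, varied 2.86-fold between the 11 libraries with at least 20 counts, against 1.34-fold or less for the other 9 genes.

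Over both times 0 of the 10 receptor genes passed the test, and 0% of all 17035 genes did (edgeR; 2.42% of genes and 0 of the receptor genes had an unadjusted p under 0.05). Of the 10 receptor genes 4 had a positive and 6 a negative log2 difference, with a median of -0.11, against 0.00 over all genes. At 6 weeks 6 were positive (median 0.09), against 49.0% of all genes (median -0.01). At 8 weeks 2 were positive (median -0.19), against 51.0% of all genes (median 0.01). Again 0 passed and 0% of all genes did (3.21% and 1.06% of genes, and 0 of the receptor genes, had an unadjusted p under 0.05). DESeq2 called 0 of the 10 in each of these 3 comparisons too, and 6, 44 and 4 of all genes.

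**Figure D3:**
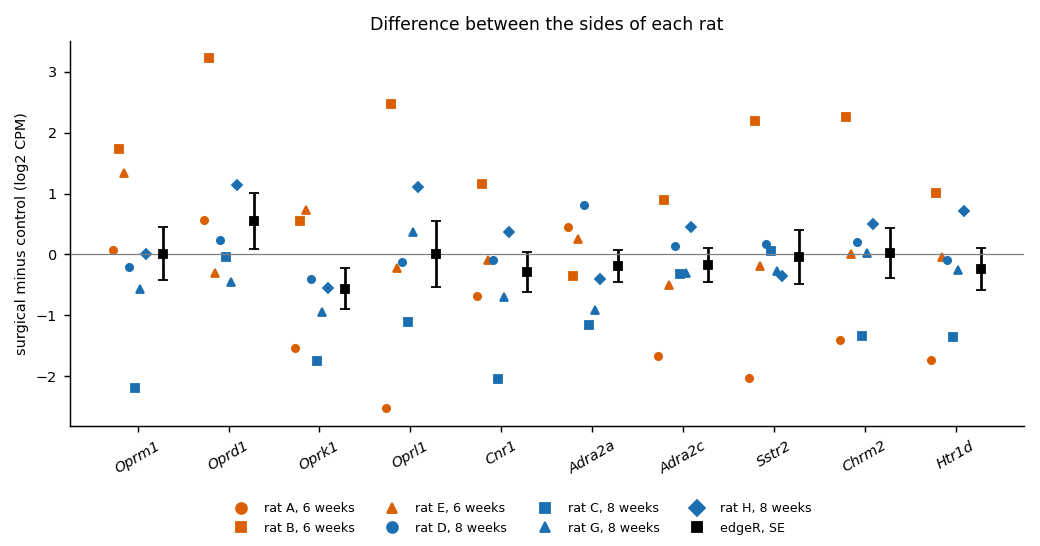
Difference between the surgical and the control ganglia of each rat on the log2 CPM scale (coloured points, 6 weeks orange and 8 weeks blue) and the edgeR estimate over both times with its SE (black squares). The rats scatter on both sides of 0 for every gene, with rat B highest for 8 of the 10 genes, up to 3.22 for Oprd1.

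The 8-week animals were compared with the 6-week animals on the control side, which asks whether the level in ganglia of the unoperated side is steady between the times. Here 9 of the 10 receptor genes had a higher level at 8 weeks, against 46.5% of all genes (median log2 difference 0.88, against -0.06 over all genes). However, 0 of the 10 passed (smallest adjusted p = 0.0841 for Oprm1, edgeR, n = 3 and 4 rats). Of all 16346 genes 0.153% passed. Oprm1 was 2.39 higher (SE 0.51, unadjusted p = 0.00176), Oprk1 1.08 (SE 0.37), Chrm2 0.88 (SE 0.29) and Htr1d 1.07 (SE 0.55). An unadjusted p under 0.05 was found for 3 of the 10 (Oprm1, Oprk1 and Chrm2) and for 31.2% of all genes, so that share is at the background. The same 3 genes had no overlap between the groups by TPM, with 35.0% of all genes higher at 8 weeks in that way, while 0 of the 10 and 2.56% of all genes were lower. On the TMM-scaled log2 CPM scale Oprk1 did overlap. It was 2.25 in the 8-week control of rat D and 2.39 in the 6-week control of rat E. Oprm1 ran from 0.202 to 0.792 TPM at 6 weeks and from 2.09 to 3.72 at 8 weeks, Oprk1 from 0.647 to 1.21 and from 1.31 to 4.36, and Chrm2 from 0.823 to 2.84 and from 3.5 to 5.85. The exception in sign was Adra2a, at -0.23 (SE 0.27) by counts, which turned to 0.36 with limma on log2(TPM + 0.1).

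The calls on the control side depended on rat E, the 6-week rat with the highest neuronal level there, and on the tool. Without rat E edgeR called 7 of the 10 genes (all higher at 8 weeks, 38.3% of all genes called and 23.2% called higher), whereas without any one of the other rats it called 0. DESeq2 called 3 of the 10 (Oprm1, Oprk1 and Chrm2, adjusted p = 1.39e-04, 0.0343 and 0.0329), with 19.4% of all genes called and 9.66% called higher. The sensory neuron level averaged 7.63 (SD 1.03, n = 3) in the 6-week and 8.82 (SD 0.32, n = 4) in the 8-week controls (two-sided exact permutation p = 0.0571, adjusted p = 0.149 over 13 marker lists), so it was higher where the receptor levels were higher. With it as a covariate 5 of the 10 values were positive and 5 negative (median -0.03). Oprm1 went from 2.39 to 1.5 (SE 0.41, adjusted p = 0.282), Oprk1 from 1.08 to 0.95 (SE 0.53, adjusted p = 0.623) and Chrm2 from 0.88 to 0.32 (SE 0.23, adjusted p = 0.723, all edgeR). Sstr2 went from 0.88 to 0.24 and Adra2a from -0.23 to 0.04, while Oprl1 turned to -0.47, Adra2c to -0.44, Oprd1 to -0.13, Cnr1 to -0.10 and Htr1d to -0.10. Different animals gave the 2 times, and nothing in the labels says whether they were processed together, so time and batch cannot be told apart.

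**Figure D4:**
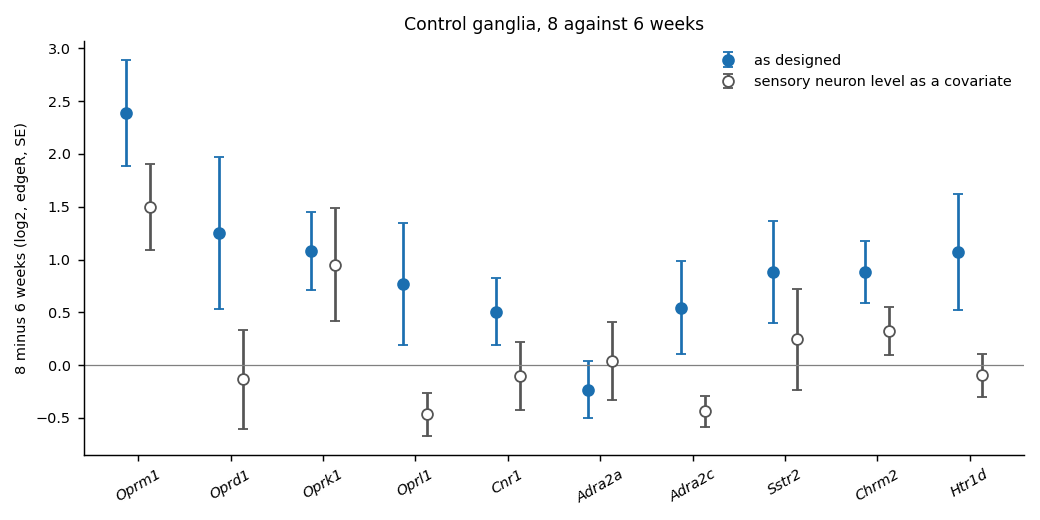
Log2 difference between 8-week and 6-week control ganglia with its SE, from edgeR as designed (filled, n = 3 and 4 rats) and with the sensory neuron level as a covariate (open). With the covariate Oprm1 goes from 2.39 to 1.5 and Oprk1 from 1.08 to 0.95, while Oprl1, Adra2c, Oprd1, Cnr1 and Htr1d go from above 0 to below it.

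On the surgical side the same contrast gave 7 positive values of 10, against 50.5% of all genes. The values ran from -0.71 for Adra2a to 1.09 (SE 0.71) for Htr1d, with Adra2c at 0.94 (SE 0.44), Oprm1 at 0.44 (SE 0.69) and Oprk1 at -0.13 (SE 0.55). None of the 10 passed (smallest adjusted p = 0.671, edgeR) and 0% of all genes did (6.56% of genes, and 0 of the receptor genes, had an unadjusted p under 0.05). By TPM 0 of the 10 were higher without overlap, against 7.05% of all genes, and 0 lower, against 2.13%.

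The receptor genes differed in how they varied with the neuronal level of a library (Pearson correlation of log2 CPM over 14 libraries of 7 rats, given as a description). It was 0.98 for Oprl1, 0.97 for Htr1d and 0.96 for Adra2c, then 0.90 for Sstr2, 0.87 for Oprm1 and 0.85 for Chrm2. Oprd1 (0.73), Oprk1 (0.68) and Cnr1 (0.64) had lower values, and Adra2a had a negative one (-0.46). The SD over the libraries was 1.19 for Oprl1 on the log2 CPM scale and 0.31 for its difference from the neuronal level. The same values were 1.12 and 0.31 for Htr1d, 0.79 and 0.30 for Adra2c, 1.20 and 0.59 for Oprm1, 0.78 and 0.72 for Oprk1, and 0.53 and 1.30 for Adra2a. On the log2 CPM scale Adra2a was highest in the surgical library of rat A (3.62), where the neuronal level was lowest. By TPM it was highest in the control library of rat G, where the neuronal level was highest (3.05 TPM, against 2.44 TPM in the surgical library of rat A).

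**Figure D5:**
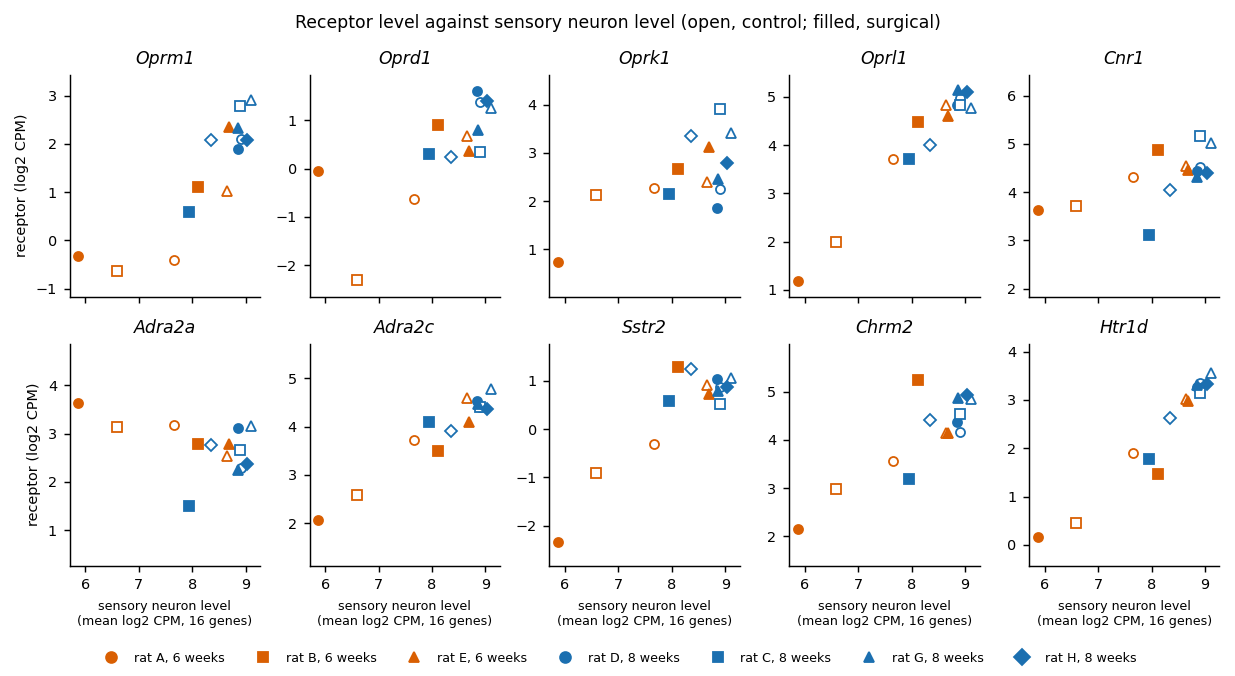
Log2 CPM of each receptor gene against the mean log2 CPM of 16 sensory neuron markers in the 14 libraries (open, control; filled, surgical; orange, 6 weeks; blue, 8 weeks; each panel spans the same number of log2 units). Htr1d, Oprl1 and Adra2c lie along a rising line, and Adra2a is highest in the library with the lowest neuronal level, 5.87.

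Among 13652 candidate genes with a mean of at least 1 TPM, those most like each receptor gene over the 14 libraries (Pearson correlation of log2 CPM, given as a description) were as follows. For Oprl1 they were Vamp1 (0.99), a synaptic vesicle gene, and Arhgef4 (0.99), for Htr1d Wdcp and Ttc9 (both 0.99), and for Adra2c Vstm2l and Kcnip3 (both 0.99). For Oprm1 they were Cplx2 (0.97), a complexin gene of transmitter release, and St6galnac5 (0.97). For Oprd1 they were Wipf2 and Plxna1 (both 0.96), for Sstr2 Plpp4 (0.96) and Myt1l (0.95), for Chrm2 Mrps2 (0.98) and Elmod1 (0.97), for Oprk1 Znrf2 (0.93) and Armc8 (0.92), and for Cnr1 Them4 (0.92) and Klhdc8a (0.91). For Adra2a they were Bmper (0.93) and Edn1 (0.90), the gene of the vessel peptide endothelin-1. Adra2c and Htr1d were the pair of receptor genes most alike (0.95), while Adra2a was negatively correlated with 8 of the other 9. These signs belong to the log2 CPM scale, and correlations by TPM were not computed. All these values share the 14 libraries and their neuronal content.

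Promoter sequence is shown for the most alike pair (Adra2c and Htr1d) and for Adra2a, which went apart from them on the log2 CPM scale. It is also shown for Oprm1, whose change of the side effect between the times was the largest of the 10 genes, though not past the test. Sstr2 is shown because it holds the only full cyclic AMP response element. The 250 bases before a start were taken from RefSeq (rat assembly GRCr8), where 7 of the 10 genes matched by symbol, Oprm1 with 2 starts. Oprk1, Oprl1 and Cnr1 had no entry. Capitals mark exact matches on either strand to a GC box (GGGCGG), the left or right part of an RE1 element (CAGCACC or GGACAGC), which is bound by the neuronal gene repressor REST, a full cyclic AMP response element (TGACGTCA), its shorter core (TGACG, which lies within the full one), an AP-1 site (TGANTCA) or a TATA box (TATAAA).
Adra2c, chr14:79697477-79697726, minus strand: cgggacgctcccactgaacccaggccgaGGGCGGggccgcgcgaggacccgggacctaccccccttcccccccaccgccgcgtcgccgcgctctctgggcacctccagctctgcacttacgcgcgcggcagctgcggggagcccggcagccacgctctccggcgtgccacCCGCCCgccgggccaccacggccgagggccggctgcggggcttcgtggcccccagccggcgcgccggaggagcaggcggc
Htr1d, chr5:153939485-153939734, plus strand: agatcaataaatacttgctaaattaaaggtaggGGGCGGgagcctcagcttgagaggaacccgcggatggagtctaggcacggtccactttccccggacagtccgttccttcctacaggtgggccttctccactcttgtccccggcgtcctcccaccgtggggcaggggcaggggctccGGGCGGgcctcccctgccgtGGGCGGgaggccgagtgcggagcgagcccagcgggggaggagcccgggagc
Adra2a, chr1:263066530-263066779, plus strand: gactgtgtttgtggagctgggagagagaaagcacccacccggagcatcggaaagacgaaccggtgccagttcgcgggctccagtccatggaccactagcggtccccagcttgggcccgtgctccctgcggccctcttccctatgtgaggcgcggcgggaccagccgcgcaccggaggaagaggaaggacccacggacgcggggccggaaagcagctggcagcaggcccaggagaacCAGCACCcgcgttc
Oprm1, chr1:45585733-45585982, plus strand: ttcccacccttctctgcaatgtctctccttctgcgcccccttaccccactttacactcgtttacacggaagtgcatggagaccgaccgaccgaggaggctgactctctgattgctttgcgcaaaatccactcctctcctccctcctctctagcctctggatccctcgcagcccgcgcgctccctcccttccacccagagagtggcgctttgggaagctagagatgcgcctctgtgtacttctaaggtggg
Oprm1, chr1:45565121-45565370, plus strand: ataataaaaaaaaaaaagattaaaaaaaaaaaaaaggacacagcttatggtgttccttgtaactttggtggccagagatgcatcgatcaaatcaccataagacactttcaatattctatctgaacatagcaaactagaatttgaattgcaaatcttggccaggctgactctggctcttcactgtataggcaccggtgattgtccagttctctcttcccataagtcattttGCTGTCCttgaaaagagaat
Sstr2, chr10:99163103-99163352, plus strand: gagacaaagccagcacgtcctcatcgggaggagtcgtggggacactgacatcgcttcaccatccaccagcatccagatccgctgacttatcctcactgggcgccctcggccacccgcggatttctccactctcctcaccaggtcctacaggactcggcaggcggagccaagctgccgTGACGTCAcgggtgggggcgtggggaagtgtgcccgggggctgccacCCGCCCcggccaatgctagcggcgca
Adra2c held 2 GC boxes, Htr1d 3 and Sstr2 1, and Adra2a and both Oprm1 windows none. A GC box was present in 5 of the 8 windows of the receptor genes and in 30.5% of all 33469 windows of that length. The full cyclic AMP element of Sstr2, 73 bases before the start, was in 1.6% of all windows, and RE1 parts, found once each before Adra2a and the Oprm1 start listed last, were in 5.4% (CAGCACC) and 5.3% (GGACAGC). An AP-1 site was in 0 of the 8 and 6.3% of all windows, and a TATA box in 0 of the 8 and 12.9%. A match is a string of letters and no measured binding site. The GC content was 80.4% in the Adra2c window, 66.8% in Htr1d and 67.6% in Adra2a, against a median of 51.2% over all windows, and 58.4% and 36.4% in the 2 Oprm1 windows.

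The partners of these receptors were read from 6 lists of 89 entries, of which 87 were in the tables and 82 passed the filter on low counts in the comparison of the sides. Over both times 0 of the 82 passed in either direction (edgeR), and 2 (Adcy9 and Rgs10) had an unadjusted p under 0.05, against 2.42% of all genes tested. Among the peptide ligands (5 of 5 tested genes not past the test, median -0.00), Sst, the somatostatin gene, averaged 167 TPM (SD 98.1, n = 7) in control and 110 TPM (SD 57.0, n = 7) in surgical ganglia. Its log2 difference was -0.68 (SE 0.41), and 1 of 7 rats had more on the surgical side. Pnoc, the nociceptin precursor gene, stood at -0.59 (SE 0.49). Of the 7 endocannabinoid enzyme genes (median 0.01), Faah, which breaks down anandamide, stood at 0.21 (SE 0.22), Napepld, which makes it, at 0.14 (SE 0.15), and the most abundant, Abhd12, a lipase gene, at -0.03 (SE 0.17). Of 22 tested genes of other Gi/o-coupled receptors 10 were positive (median -0.06), with Htr1b, the serotonin 1B receptor gene, at 0.57 (SE 0.30; positive in 6 of 7 rats), Hrh3, the histamine H3 receptor gene, at 0.34 (SE 0.20), and Gabbr1, the most abundant, at 123 TPM (SD 64.3) in control and 117 TPM (SD 50.8) in surgical ganglia.

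Downstream of the receptors, the 15 tested G protein subunit genes had a median of -0.08, with Gnb1, the most abundant, at -0.10 (SE 0.18), Gnb4 at -0.27 (SE 0.24) and Gng3 at -0.23 (SE 0.27). The 15 effector genes had a median of 0.05. Among them the adenylyl cyclase gene Adcy9 was at 0.32 (SE 0.13; positive in 6 of 7 rats, unadjusted p = 0.035), Kcnj5, a subunit of the inward-rectifier potassium channel, at -0.56 (SE 0.34) and Adcy3 at 0.06 (SE 0.23). The 18 genes of receptor desensitisation, trafficking and RGS proteins, which end G protein signals, had a median of 0.13. Rgs10 had the smallest p of all 82, at -0.65 (SE 0.13; higher in 0 of 7 rats, unadjusted p = 7.99e-04), with 252 TPM (SD 77.9) in control and 165 TPM (SD 53.4) in surgical ganglia. Rgs11 stood at -0.35 (SE 0.20) and Rgs4, the most abundant of the list, at -0.62 (SE 0.37; higher in 2 of 7 rats). Each value in these lists had adjusted p = 1 (edgeR). For comparison, the injury genes Gal and Atf3 stood at 1.21 (SE 0.41) and 0.75 (SE 0.35), also with adjusted p = 1 (edgeR).

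At 6 weeks 19 of the 22 other Gi/o-coupled receptor genes were positive, against 49.0% of all genes (median 0.26, against -0.01 over all genes), with 0 past the test (edgeR). Spinal cord markers averaged 2.69 in the surgical and 0.44 in the control libraries of that time (log2 CPM), with 6.39 in the surgical library of rat B. The sensory neuron level of the surgical side differed from that of the control side by 1.52 in rat B and by -1.79 in rat A. Without rat B 10 of 23 were positive (median -0.06), and without rat A 22 of 23 (median 1.07). What spinal cord RNA or neuronal content contributed was not tested. At 8 weeks 5 of the 22 were positive, against 51.0% of all genes (median -0.44, against 0.01 over all genes), again with 0 past the test. Without rat C, whose surgical library had the highest muscle marker level (12.4, log2 CPM), 8 of 22 were positive (median -0.15). What the muscle RNA contributed was not tested.

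In the 8-week against the 6-week controls 17 of 21 other Gi/o-coupled receptor genes were positive (median 0.81), as were 13 of 15 effector genes (median 0.92) and 10 of 14 G protein subunit genes (median 0.45), against 46.5% of all genes (median -0.06). The other lists had smaller medians, with 2 of 4 peptide genes (median -0.06), 5 of 7 endocannabinoid genes (median 0.14) and 12 of 18 desensitisation, trafficking and RGS genes (median 0.16) positive. None of the 79 listed genes passed (smallest adjusted p = 0.0815, edgeR). The sensory neuron level was 7.63 at 6 and 8.82 at 8 weeks. With it as a covariate 17 of 21 receptor (median 0.46), 9 of 15 effector (median 0.22) and 12 of 14 subunit genes (median 0.08) were positive. So were 1 of 4 peptide (median -0.45), 3 of 7 endocannabinoid (median -0.01) and 12 of 18 desensitisation, trafficking and RGS genes (median 0.18), against 48.4% of all genes (median -0.01).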

How the data were processed

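RNA of 14 ganglion libraries from 7 rats was analysed. The authors deposited estimated counts, as whole numbers, and TPM per Ensembl gene. The submitters' processing notes name FastQC, Trim Galore, Salmon and DESeq2, without roles. Versions and the genome build were not given in the sources used here. Per the labels, polyA RNA was extracted and ribosomal depletion used. Rat letters follow the sample titles, where C and D are exchanged against the library names, with pairs intact. The surgical library of rat C, titled replicate 1, was used as replicate 2.

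The deposited counts went into edgeR 4.0.16 (R 4.3.3; filterByExpr with a minimum count of 10, TMM, robust quasi-likelihood, two-sided p, Benjamini-Hochberg adjustment over all genes, threshold 0.05). The sides were compared with the rat as a block, because the titles name the animal. The deviations of the paired libraries from their group means correlated at over 0.1 in 3 of 7 rats and each rat matched its own partner best in 2 of 7. The times were compared between rats, without a block. SE is the log2 difference divided by the root of F. Log2 CPM used a prior count of 2. Library measures and level orders used exact sign-flip or permutation tests. Alternatives were DESeq2 1.42.0, limma 3.58.1 on log2 TPM, other filters and scalings, a neuronal covariate, a length correction and left-out rats. Scripts were tested on simulated data. The receptors, lists and tests were chosen with earlier results of these data known. All 10 receptor genes, the 2 list genes with the smallest p and the most abundant one of each list, 2 genes most like each receptor and Gal, Atf3 and Rgs10 are named by rule. Replicates are separate rats.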

Additional observations from a re-analysis of the deposited data

Results flagged for a closer look

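In groups of 4 libraries, 4 of 46 values stood apart from the rest of their group by Dixon's criterion at 95%, which chance meets in about 1 of 20 groups. Adra2c was 11.1 TPM in the surgical library of rat C, against 18.2 TPM in the next of the 4 surgical libraries at 8 weeks. On the log2 CPM scale, where the gap was smaller, it was 4.09 in that library, against 4.36 in the next. The sensory neuron level of the same library was 7.94, against 8.85 in the next. The skeletal muscle level was 9.41 in the control library of rat H, against 2.72 in the next of the 8-week controls. The endothelial and mural cell level was 4.29 in the control library of rat D, against 5.22 in the next.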

How the results depend on the processing

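The count of receptor genes past the test was 0 in all alternatives of the 4 comparisons of the sides and of the times on the surgical side. For the times on the control side it was 3 with DESeq2 and ran from 0 to 7 when 1 rat was left out, the 7 without rat E. In the order of levels 3 neighbour pairs passed in the surgical libraries. Most side differences were small against their errors, and many signs turned. The largest against their errors were Oprm1 at 6 weeks (1.15, SE 0.54), Oprk1 at 8 weeks (-0.92, SE 0.42) and the change of Oprm1 between the times (-1.88, SE 0.70). None of them passed the test. Of 1040 values of a gene under an alternative 99 had the opposite sign to the value reported. The cause was not tested. Of all genes, DESeq2 called 6, 44 and 4 between the sides (both times, 6 weeks and 8 weeks), 5 for the change between the times, and 3096 and 8 between the times (control and surgical side), where edgeR called 0, 0, 0, 0, 25 and 0. On the control side edgeR called 6388 genes between the times without rat E, 1 without rat H and 0 without each other rat, 15 with the neuronal covariate, and 0 without rats B, C and H or with the length trend removed, and limma called 8 and 13 (pseudocounts 1 and 0.1). On the surgical side limma called 3 and 4, and without the replicate block edgeR called 2 between the sides at 6 weeks. DESeq2 took Htr1d to -0.013 for the change between the times. DESeq2 size factors in edgeR took Htr1d to -0.014 for the change between the times. The length trend removed took Oprl1 to -0.0021 and Chrm2 to -0.061 over both times, and Cnr1 to -0.079 at 6 weeks, and Adra2c to 0.0037 at 8 weeks, and Htr1d to -0.22 for the change between the times. limma on log2(TPM + 0.1) took Oprk1 to 0.17, Oprl1 to 0.15 and Sstr2 to -0.060 at 6 weeks, and Oprl1 to -0.070 at 8 weeks, and Oprl1 to -0.22 and Htr1d to -0.33 for the change between the times, and Adra2a to 0.36 for the control side over time, and Oprk1 to 0.33 for the surgical side over time. limma on log2(TPM + 1) took Oprm1 to -0.057 over both times, and Oprk1 to 0.19 and Oprl1 to 0.20 at 6 weeks, and Oprl1 to -0.054 at 8 weeks, and Oprl1 to -0.26 and Htr1d to -0.31 for the change between the times, and Adra2a to 0.26 for the control side over time, and Oprk1 to 0.093 for the surgical side over time. No filter took Htr1d to -0.015 for the change between the times. The fit without the rat as a replicate block took Sstr2 to 0.11 over both times, and Oprk1 to 0.22 and Oprl1 to 0.11 at 6 weeks. The neuronal covariate took Sstr2 to 0.027 over both times, and Oprl1 to 0.0069 at 6 weeks, and Adra2c to 0.093, Sstr2 to 0.041 and Chrm2 to 0.011 at 8 weeks, and Sstr2 to 0.036 for the change between the times, and Oprd1 to -0.13, Oprl1 to -0.47, Cnr1 to -0.10, Adra2a to 0.039, Adra2c to -0.44 and Htr1d to -0.10 for the control side over time, and Oprm1 to -0.41, Oprl1 to -0.20, Sstr2 to -0.41 and Chrm2 to -0.84 for the surgical side over time. Leaving out rats A and B (chosen after seeing the data) took Oprm1 to -0.33 and Chrm2 to -0.11 over both times. Leaving out rats B, C and H took Oprd1 to -0.015, Oprl1 to -0.51, Adra2a to 0.16 and Chrm2 to -0.26 over both times, and Cnr1 to -0.39, Sstr2 to -1.02 and Chrm2 to -0.68 at 6 weeks, and Oprd1 to -0.11 and Chrm2 to 0.11 at 8 weeks, and Sstr2 to 0.96 and Chrm2 to 0.79 for the change between the times, and Cnr1 to 0.27 for the surgical side over time. For the sides over both times, without 1 rat at a time, Oprm1 ran from -0.26 (without B) to 0.36 (without C), Oprl1 ran from -0.36 (without B) to 0.38 (without A), Adra2c ran from -0.35 (without B) to 0.056 (without A), Sstr2 ran from -0.37 (without B) to 0.23 (without A) and Chrm2 ran from -0.31 (without B) to 0.26 (without A). For the sides at 6 weeks, without 1 rat at a time, Oprk1 ran from -0.50 (without E) to 0.65 (without A), Oprl1 ran from -1.33 (without B) to 1.11 (without A), Cnr1 ran from -0.39 (without B) to 0.53 (without A), Adra2a ran from -0.056 (without A) to 0.36 (without B), Adra2c ran from -1.08 (without B) to 0.18 (without A), Sstr2 ran from -1.11 (without B) to 1.02 (without A), Chrm2 ran from -0.68 (without B) to 1.13 (without A) and Htr1d ran from -0.87 (without B) to 0.47 (without A). For the sides at 8 weeks, without 1 rat at a time, Oprd1 ran from -0.090 (without H) to 0.47 (without G), Oprl1 ran from -0.29 (without H) to 0.45 (without C), Adra2c ran from -0.16 (without H) to 0.091 (without C), Chrm2 ran from -0.36 (without H) to 0.25 (without C) and Htr1d ran from -0.56 (without H) to 0.12 (without C). For the change of the side difference between the times, without 1 rat at a time, Oprd1 ran from -1.85 (without E) to 0.11 (without B), Oprl1 ran from -1.03 (without A) to 1.40 (without B), Adra2c ran from -0.19 (without A) to 1.07 (without B), Sstr2 ran from -1.11 (without A) to 1.01 (without B), Chrm2 ran from -1.26 (without A) to 0.56 (without B) and Htr1d ran from -0.70 (without A) to 0.63 (without B). For the times on the surgical side, without 1 rat at a time, Oprm1 ran from -0.0073 (without A) to 1.37 (without E), Oprk1 ran from -0.56 (without A) to 0.39 (without E), Sstr2 ran from -0.20 (without A) to 0.99 (without B) and Chrm2 ran from -0.30 (without A) to 1.00 (without B). As shares of the opioid receptor TPM (percentage points, surgical minus control), without 1 rat at a time, Oprm1 ran from -2.34 (without A) to 0.42 (without G) and Oprl1 from -2.39 (without B) to 6.55 (without A). With limma on log2(TPM + 1) the Oprm1 difference was 0.53 at 6 weeks, -1.03 for the change between the times and 1.47 for the control side over time. Leaving out rats for shares and lists, and the covariate for lists, were chosen after seeing the data. The neuronal covariate left 1 of 4 peptide genes and 3 of 7 endocannabinoid genes above 0 on the control side over time, from 2 and 5. The fit without the block called 0 of the 10 genes in each comparison of the sides. Oprm1 kept its sign at 6 weeks, at 8 weeks and in the change between the times under each alternative, and Oprk1 kept it at 8 weeks and over both times. This was not particular to them. Cnr1 and Htr1d kept theirs over both times, Oprd1 at 6 weeks, and Cnr1 and Adra2a at 8 weeks. In the change between the times Oprk1, Cnr1 and Adra2a kept theirs too. Counts of 2 to 13 in some libraries limit Oprd1, Sstr2 and Oprm1.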
